A study of Mus musculus with 6 samples.

Results

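The genes described here encode the secreted and membrane-bound proteases that cut the extracellular matrix, together with their inhibitors, in the soleus of mice. Members were all genes whose symbol begins with Mmp and a digit (matrix metalloproteinases), with Adamts or Adamtsl (disintegrin-like metalloproteinases with thrombospondin repeats, and their relatives without a protease domain), or is one of Timp1 to Timp4 (tissue inhibitors of metalloproteinases). The rule gave 49 of the 19938 genes measured, made up of 22 Mmp, 18 Adamts, 5 Adamtsl and 4 Timp genes. Where a gene had several transcript clusters, as 4 members did, the one with the highest mean signal stood for it. Mmp15 and Adamts2 had no cluster of their own and were not analysed here.

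RNA of whole soleus, a slow postural calf muscle, was measured on 6 Affymetrix Mouse Gene 1.0 ST arrays, 2 in each of 3 groups. The groups were hindlimb suspension with electroacupuncture (called EA below), in which current is passed through acupuncture needles, hindlimb suspension alone, which takes the weight off the hind limbs, and control. All arrays came from male C57BL/6 mice aged 8 weeks, and the labels give neither the length of suspension nor the points needled. Nor do they state if duplicates came from separate animals, so p-values measure only the spread between arrays.

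Matrix metalloproteinases are made as inactive precursors and cut collagens, gelatin, elastin and proteoglycans once their propeptide is removed, often by another protease of the family. The Adamts enzymes split into those that cut aggregating proteoglycans such as versican, those that trim procollagen, and several with single substrates. The Timp proteins block the active site of matrix metalloproteinases, and Timp3 also that of some Adamts enzymes. In muscle these genes are active mainly in fibroblasts, endothelium, macrophages and satellite cells, and are known for matrix turnover during unloading, regrowth and repair.

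The muscle identity of the tissue was checked on 8 muscle markers, whose mean log2 signals ran from 10.30 to 13.36. They averaged -0.63 and -0.44 from the control mean on the EA arrays, -0.58 and -0.57 on the suspension arrays and -0.17 and 0.17 on the control arrays. The markers did not all move together: Myh2 was lower and Ckm higher on every EA and suspension array than on both control arrays. Array medians over all genes lay between 4.55 and 4.61. As a measure of background, 1027 olfactory receptor genes had a 95th percentile of 3.50, and 37 of the 49 members (75.5%) had a mean signal above it, as did 68.8% of all genes. The 12 members at or below it were Adamts13, Adamts19, Mmp1a, Mmp1b, Mmp3, Mmp7, Mmp8, Mmp12, Mmp16, Mmp21, Mmp25 and Mmp27. A low signal on an array does not exclude a transcript, and signals of different genes are not compared because each rests on its own probes. With 2 arrays a group, precision is set by that number.

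A run of neighbouring Mmp genes on mouse chromosome 9 held several of the members with the widest spread between arrays. In the RefSeq annotation of GRCm38.p6 the 10 genes Mmp13, Mmp12, Mmp1b, Mmp3, Mmp1a, Mmp10, Mmp8, Mmp27, Mmp20 and Mmp7 follow each other with no other listed protein-coding gene between them. RefSeq promoter sequences (250 bases before to 50 after the start site) were found for 34 of the 49 members. The letters TGANTCA, with any base at N, are a loose form of the site recognised by the AP-1 family of transcription factors. They read the same on both strands and occurred in a promoter of 8 of these 34 genes (23.5%), against 8.97% of 27025 mouse genes. All 8 lay in the run, and 0 of the other 24 members with a promoter held the letters. The stretches below are shown because Mmp13 and Mmp3, whose signals varied most between arrays within the run, share the letters with neighbours whose signals differed from theirs across the arrays. Of the 10 genes of the run, 3 had a mean signal above background. Mmp3, Mmp12, Mmp1a and Mmp1b did not, which limits what this contrast shows. Each is 47 bases long, 5′ to 3′ on the strand of the gene, with the match in capitals.
Mmp13 at chr9:7272459-7272505, plus strand: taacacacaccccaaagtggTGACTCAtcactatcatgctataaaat
Mmp3 at chr9:7445756-7445802, plus strand: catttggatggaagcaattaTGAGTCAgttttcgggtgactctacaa
Mmp10 at chr9:7502259-7502305, plus strand: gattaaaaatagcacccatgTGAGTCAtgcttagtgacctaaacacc
Mmp12 at chr9:7347310-7347356, plus strand: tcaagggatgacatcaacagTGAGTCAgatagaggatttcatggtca
Mmp1a at chr9:7464048-7464094, plus strand: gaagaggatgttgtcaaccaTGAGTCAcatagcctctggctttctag
Mmp1b at chr9:7388093-7388139, minus strand: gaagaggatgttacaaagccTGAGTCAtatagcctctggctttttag
The match began 35 bases before the start site in Mmp13, 46 in Mmp3, 63 in Mmp10, 44 in Mmp12, 73 in Mmp1a and 93 in Mmp1b. Mmp7 and Mmp20 were the other genes with a match, at 63 and 95 bases, and the promoters of Mmp8 and Mmp27 had none in this window. The match was TGAATCA in Mmp20, and TGAGTCA or TGACTCA in all other genes with a match. For Mmp12 and Mmp7 the table held 2 start sites each, with the letters before 1 of them. Mmp1a and Mmp1b had 40 of the 47 bases in common. These are promoter bases, and whether the signals of Mmp1a and Mmp1b share RNA was not tested. A second motif, the E-box CACGTG, which also reads the same on both strands, was found for 2 of the 34 members (Adamts17 and Mmp7, 5.88%), against 8.09% of all genes. A match describes the letters and is not evidence of a bound factor.

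Adamts1 and Adamts8 fell in both suspended groups, and no other member passed adjusted p under 0.05 in any comparison. In suspension minus control 2 of 49 members passed, both lower (4.08%), against 1.05% of all genes in either direction and 0.512% lower. In EA minus control the same 2 genes passed, against 1.03% of all genes and 0.587% lower; this comparison shares its control arrays with the one before. In EA minus suspension limma called 0 members and 0 of 19938 genes in either direction, so the share called was 0%, and the 4 members Timp3, Adamts15, Mmp10 and Mmp13 had an unadjusted p under 0.05 (8.16%, against 612 or 3.07% of all genes). The same unadjusted count was 11 members in suspension minus control (22.4%, against 12.7%) and 9 in EA minus control (18.4%, against 12.8%).

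The members as a set lay near all other genes in the middle of their distribution. The median difference was -0.01 in suspension minus control (all genes 0.01), -0.03 in EA minus suspension (all genes -0.01) and 0.00 in EA minus control (all genes 0.01), in log2 units. Arrays of the groups did not overlap for 21 members in suspension minus control (42.9%, against 39.8% of all genes), 12 in EA minus suspension (24.5%, against 32.6%) and 23 in EA minus control (46.9%, against 41.8%). By family, 17 of 22 Mmp genes had a suspension mean above control (median 0.21), against 51.1% of all genes. Without suspension array 1 the count was 14 and the median 0.07. Of 18 Adamts genes 13 had a suspension mean below control (median -0.17), against 48.9% of all genes, and without control array 1 the count was 8 and the median 0.01. All 4 Timp genes had a suspension mean below control (median -0.44), but without suspension array 2 only 2 did (median 0.08). In EA minus suspension 16 of 22 Mmp genes lay below 0 (median -0.14), against 51.6% of all genes, and without suspension array 1 the count was 12 and the median -0.05.

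**Figure D1:**
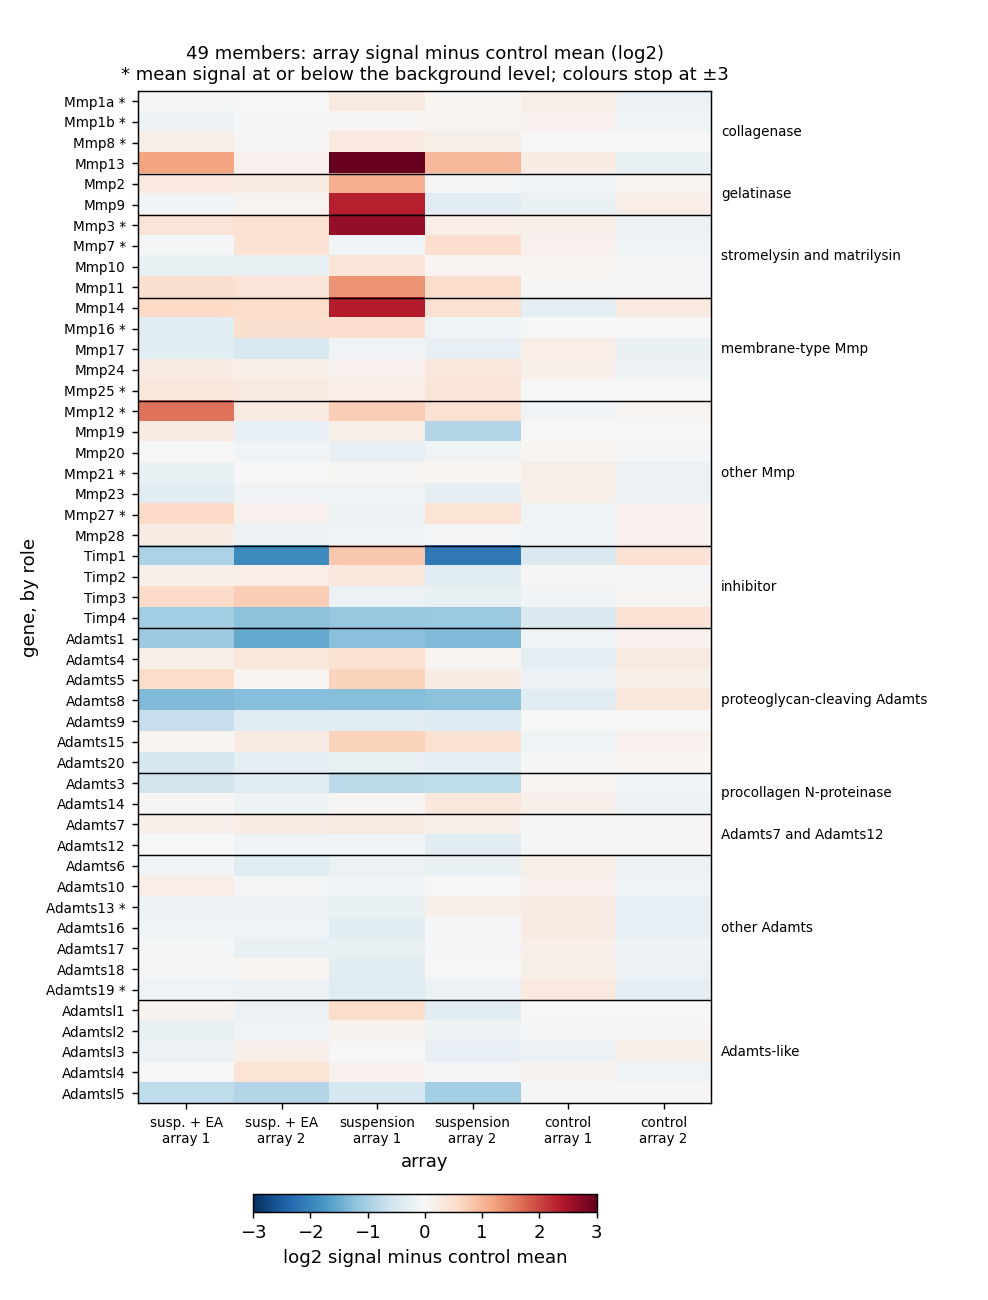
Log2 signal of the 49 members (rows, grouped by role) on each of the 6 arrays (columns), minus the control mean, from blue (lower) through white to red (higher), with an asterisk for a mean signal at or below background. Adamts1, Adamts8 and Timp4 are blue on all 4 EA and suspension arrays, and Mmp13, Mmp3, Mmp14 and Mmp9 are darkest red on suspension array 1, where Mmp13 lay 6.91 above the control mean, beyond the end of the colour scale at 3.

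Adamts1 encodes a secreted protease that cuts versican and aggrecan and restrains blood vessel growth through its thrombospondin repeats. Its log2 signals were 5.75 and 5.29 on the EA arrays, 5.58 and 5.52 on the suspension arrays and 6.72 and 6.96 on the control arrays. Every EA and suspension array lay below both control arrays, and the EA and suspension values overlapped. Adamts1 fell by 1.32 ± 0.18 (SE) in EA minus control, or 2.49-fold (95% interval -1.72 to -0.91, adjusted p = 0.015), and fell by 1.28 ± 0.18 in suspension minus control, or 2.44-fold (-1.69 to -0.88, adjusted p = 0.0188). Between EA and suspension the difference was -0.03 ± 0.18, with an interval from -0.44 to 0.37 (adjusted p = 1.00). The call was lost on leaving out either array of the suspended group concerned, with adjusted p of 0.0657 and 0.143 without EA arrays 1 and 2, and 0.0999 and 0.107 without suspension arrays 1 and 2. Because whole muscle was extracted, fewer cells that make a transcript and less of it in each cell cannot be told apart here or below.

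The Adamts1 promoter is shown as that of the member with the lowest adjusted p in both comparisons with control; it held neither motif searched, so no letters are in capitals.
Adamts1 at chr16:85803064-85803363, minus strand: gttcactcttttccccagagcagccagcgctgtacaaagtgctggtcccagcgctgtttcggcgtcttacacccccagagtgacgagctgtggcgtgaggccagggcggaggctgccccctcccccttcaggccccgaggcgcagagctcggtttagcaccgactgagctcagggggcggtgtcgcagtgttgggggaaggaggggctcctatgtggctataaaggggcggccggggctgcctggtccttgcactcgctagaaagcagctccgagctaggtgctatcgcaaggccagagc

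Adamts8, a close relative of Adamts1 that was also described as an inhibitor of blood vessel growth, had log2 signals of 4.002 and 4.06 on the EA arrays, 4.04 and 4.09 on the suspension arrays and 4.98 and 5.68 on the control arrays. The 4 EA and suspension arrays lay close together, and the control arrays lay above them and apart from each other. Adamts8 fell by 1.30 ± 0.22 in EA minus control, or 2.46-fold (adjusted p = 0.0344), and fell by 1.26 ± 0.22 in suspension minus control, or 2.39-fold (95% interval -1.76 to -0.76, adjusted p = 0.0394). The EA and suspension means differed by -0.04 ± 0.22 (-0.54 to 0.46). The difference depended on control array 2. Without that array it was -0.95 in EA minus control (adjusted p = 0.0504) and -0.91 in suspension minus control (0.0561). Without control array 1 it was -1.65 and -1.61, with the calls kept. The calls also missed the threshold without the variance trend (0.051 and 0.0581), with only the compared groups fitted (0.0646 and 0.0959) and on leaving out any EA or suspension array (0.0647 to 0.272 in EA minus control and 0.0975 to 0.181 in suspension minus control). Endothelial markers, a list of 6 genes, averaged -0.30 and -0.38 from the control mean on the EA arrays, 0.08 and -0.06 on the suspension arrays and -0.11 and 0.11 on the control arrays. These averages hid opposite directions. On every EA and suspension array Kdr lay below both control arrays and Vwf above both. Tek was above both control arrays in suspension and below both in EA. The 7 tendon markers averaged -0.75 and -0.53 from the control mean on the EA arrays, -1.14 and -1.40 on the suspension arrays and 0.02 and -0.02 on the control arrays. Tnmd, Scx and Kera lay below both control arrays on every EA and suspension array. Thbs4 was above both control arrays on suspension array 1, and Fmod lay between them on both EA arrays. The 5 adipocyte markers averaged -0.18 and -0.40 on the EA arrays, -0.62 and -0.85 on the suspension arrays and -0.90 and 0.90 on the control arrays. The part of these cell types in the Adamts1 and Adamts8 differences was not tested.

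**Figure D2:**
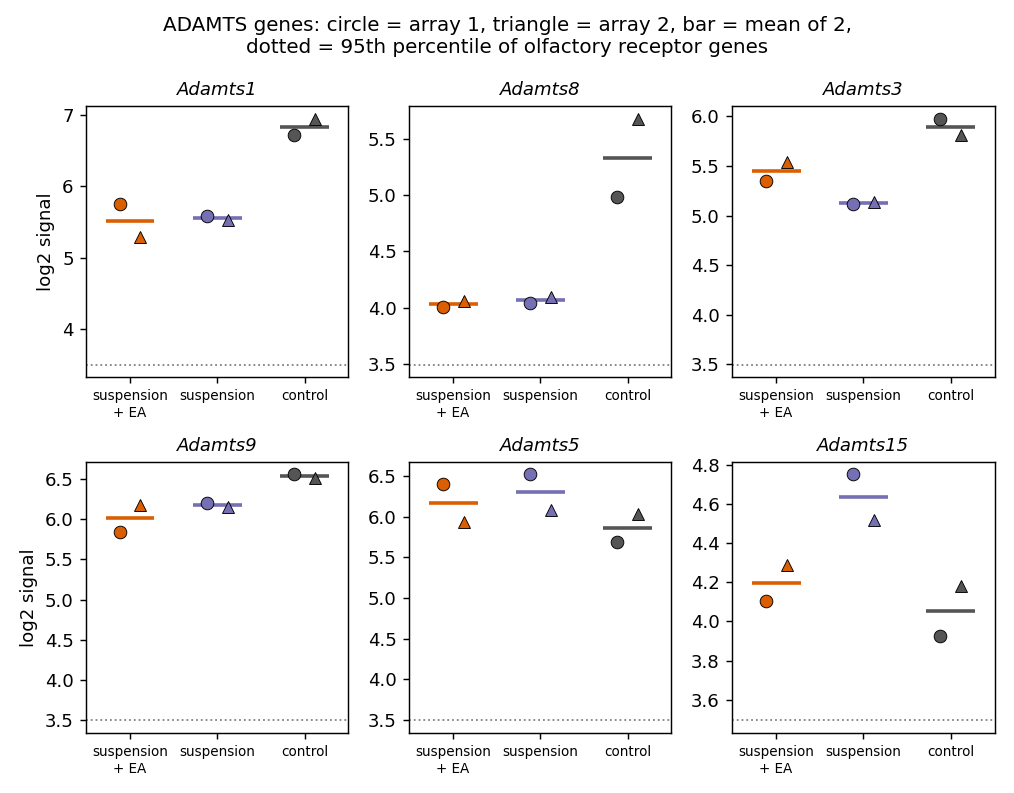
Log2 signal (y axis) of Adamts1, Adamts8, Adamts3, Adamts9, Adamts5 and Adamts15 in suspension with EA, suspension and control (x axis, left to right), with circles for array 1, triangles for array 2, bars for the mean of both and a dotted line at the background level. Adamts1 and Adamts8 sit lower on all EA and suspension arrays than on both control arrays, and Adamts3 is highest in control and lowest in suspension.

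The other proteoglycan-cutting Adamts genes did not pass the test, and their differences ran both ways. Adamts9, which clears versican and is the mammalian relative of the worm gene gon-1, had 5.84 and 6.18 on the EA arrays, 6.20 and 6.15 on the suspension arrays and 6.56 and 6.51 on the control arrays. Both control arrays were the highest, with differences of -0.52 ± 0.15 in EA minus control (adjusted p = 0.172) and -0.36 ± 0.15 in suspension minus control (0.372). All 6 transcript clusters of Adamts9 were below 0 in both comparisons, from -1.41 to -0.36 in EA minus control and from -0.82 to -0.27 in suspension minus control. With the mean of all clusters the differences were -0.79 in EA minus control and -0.53 in suspension minus control.

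Adamts15, a versican-cutting enzyme of developing muscle, had 4.11 and 4.29 on the EA arrays, 4.75 and 4.52 on the suspension arrays and 3.92 and 4.18 on the control arrays. Both suspension arrays were above all others, with -0.44 ± 0.17 in EA minus suspension (adjusted p = 1.00) and 0.58 ± 0.17 in suspension minus control (adjusted p = 0.184). Adamts15 and Adamts8 are neighbours on chromosome 9, and Adamts1 and Adamts5 on chromosome 16. Members of each pair differed from control in opposite directions in suspension, and Adamts8 and Adamts1 alone passed the test.

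The main aggrecanase of cartilage, Adamts5, had 6.41 and 5.94 on the EA arrays, 6.52 and 6.08 on the suspension arrays and 5.69 and 6.03 on the control arrays. Array 1 was above array 2 in EA and in suspension, the EA group overlapped both others, and suspension minus control was 0.44 ± 0.21 (adjusted p = 0.45), or 0.22 without suspension array 1 and 0.27 without control array 1. The second aggrecanase, Adamts4, had 4.09 and 4.27 on the EA arrays, 4.37 and 3.99 on the suspension arrays and 3.66 and 4.18 on the control arrays, and all groups overlapped. Adamts20, a relative of Adamts9 that acts on versican in skin pigmentation, had 4.23 and 4.45 on the EA arrays, 4.51 and 4.45 on the suspension arrays and 4.66 and 4.80 on the control arrays. Its control arrays were the highest, and EA minus control was -0.39 ± 0.16 (adjusted p = 0.34).

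Adamts3 encodes a procollagen N-proteinase that also activates the lymphatic growth factor VEGF-C. Its log2 signals were 5.35 and 5.54 on the EA arrays, 5.12 and 5.14 on the suspension arrays and 5.98 and 5.81 on the control arrays. The groups did not overlap, with EA between suspension and control. Suspension minus control was -0.77 ± 0.15 (adjusted p = 0.0517), EA minus control -0.45 ± 0.15 (0.235) and EA minus suspension 0.32 ± 0.15 (1.00). The first of these passed with a robust prior (0.0477), with genes at or above the median signal (0.0357) and with cyclic loess (0.0465). It was -0.58 (adjusted p = 0.154) with the mean of all clusters, where EA minus suspension was 0.0927, and its adjusted p was 0.108 with the replicate block. Adamts3 had 16 transcript clusters, more than any other member, and all 16 were below 0 in suspension minus control (median -0.49, from -1.26 to -0.20) and in EA minus control (median -0.46). In EA minus suspension 11 were above 0 and 5 below.

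Among the Adamts genes of fibrillin microfibrils and their relatives without protease activity, none passed. Adamtsl5, whose product binds fibrillin, had 6.14 and 6.02 on the EA arrays, 6.39 and 5.87 on the suspension arrays and 6.85 and 6.94 on the control arrays. Both control arrays lay above the other 4, with differences of -0.81 ± 0.18 in EA minus control (adjusted p = 0.0845) and -0.76 ± 0.18 in suspension minus control (0.0973), with -0.50 in the second without suspension array 2. Adamtsl4, which supports the fibrillin fibres of the eye, had 6.91 and 7.33 on the EA arrays, 7.06 and 6.89 on the suspension arrays and 7.02 and 6.82 on the control arrays, with all groups overlapping. Adamts17, which is needed for fibrillin assembly in connective tissue, had 6.35 and 6.16 on the EA arrays, 6.16 and 6.31 on the suspension arrays and 6.52 and 6.23 on the control arrays, again with overlap.

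The matrix metalloproteinases differed most between the arrays of the suspension group. Mmp13, the main interstitial collagenase of rodents, had log2 signals of 4.30 and 3.24 on the EA arrays, 10.02 and 4.09 on the suspension arrays and 3.35 and 2.88 on the control arrays. Suspension array 1 stood alone, and array 2 of the same group lay below EA array 1. The gap of 5.93 between the suspension arrays was the largest of all 19938 genes. The fitted suspension minus control difference of 3.94 ± 1.44, also the largest of all genes, did not pass (adjusted p = 0.29), nor did EA minus suspension at -3.29 ± 1.44 (adjusted p = 1.00). Without suspension array 1 these were 0.97 (adjusted p = 0.49) and -0.32 (1.00), and without suspension array 2 they were 6.91 (0.00325) and -6.25 (0.00695). In these fits the lone array is assumed to vary like the other groups.

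Stromelysin 1, Mmp3, which activates other metalloproteinase precursors, had 3.26 and 3.33 on the EA arrays, 5.51 and 3.08 on the suspension arrays and 3.05 and 2.69 on the control arrays. Only suspension array 1 exceeded the background level, and suspension minus control was 1.43 ± 0.61 (adjusted p = 0.374), or 0.21 without suspension array 1. EA minus suspension was -1.0005 ± 0.61 (adjusted p = 1.00), and 0.22 without suspension array 1. The gelatinase Mmp9, carried by inflammatory cells and also made by activated muscle cells, had 3.98 and 4.14 on the EA arrays, 6.39 and 3.75 on the suspension arrays and 3.85 and 4.27 on the control arrays. Suspension array 1 was the highest and array 2 the lowest, and suspension minus control was 1.01 ± 0.65 (adjusted p = 0.595), or -0.31 without suspension array 1 and 2.33 without array 2 (adjusted p = 0.0195). EA minus suspension was -1.01 ± 0.65 (1.00), and 0.31 without suspension array 1.

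Membrane-type Mmp14, a collagenase at the cell surface that activates Mmp2 with the help of Timp2, had 6.61 and 6.55 on the EA arrays, 8.39 and 6.49 on the suspension arrays and 5.75 and 6.31 on the control arrays. All 4 EA and suspension arrays were above both control arrays, with suspension array 1 far above the rest. Suspension minus control was 1.41 ± 0.49 (adjusted p = 0.254), or 0.46 without suspension array 1 and 2.37 without array 2 (0.0195). For EA minus suspension it was -0.86 ± 0.49, and 0.09 without suspension array 1. The gelatinase Mmp2, made by fibroblasts throughout the matrix, had 8.82 and 8.73 on the EA arrays, 9.59 and 8.48 on the suspension arrays and 8.44 and 8.59 on the control arrays. Suspension arrays 1 and 2 were at the top and near the bottom of its range, and suspension minus control was 0.52 ± 0.29 (adjusted p = 0.523), or -0.03 without suspension array 1.

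Mmp11, or stromelysin 3, is activated inside the cell by furin-like enzymes. It had 5.48 and 5.39 on the EA arrays, 6.34 and 5.52 on the suspension arrays and 5.02 and 4.97 on the control arrays. The groups did not overlap, and the order was suspension, EA, control. Suspension minus control was 0.93 ± 0.24 (adjusted p = 0.121), or 0.52 without suspension array 1 and 1.34 without array 2 (0.0433). EA minus suspension was -0.49 ± 0.24 (adjusted p = 1.00), or -0.0833 without suspension array 1 and -0.90 without array 2. EA minus control was 0.44 ± 0.24 (0.517).

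Stromelysin 2, Mmp10, had 3.60 and 3.57 on the EA arrays, 4.18 and 3.84 on the suspension arrays and 3.84 and 3.74 on the control arrays. The EA arrays were the lowest, near background, and EA minus suspension was -0.43 ± 0.17 (adjusted p = 1.00), or -0.25 without suspension array 1. The macrophage elastase Mmp12 had 4.53 and 3.17 on the EA arrays, 3.64 and 3.34 on the suspension arrays and 2.82 and 2.97 on the control arrays. It differed from Mmp13 and Mmp3 in that EA array 1 was the highest. All 4 EA and suspension arrays were above both control arrays, which held for Mmp3 too but not for Mmp13. EA minus control was 0.95 ± 0.37 (adjusted p = 0.316) and suspension minus control 0.60 ± 0.37 (0.569), at signals around the background level. Without EA array 1 the EA minus control value was 0.27, and without EA array 2 it was 1.63.

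**Figure D3:**
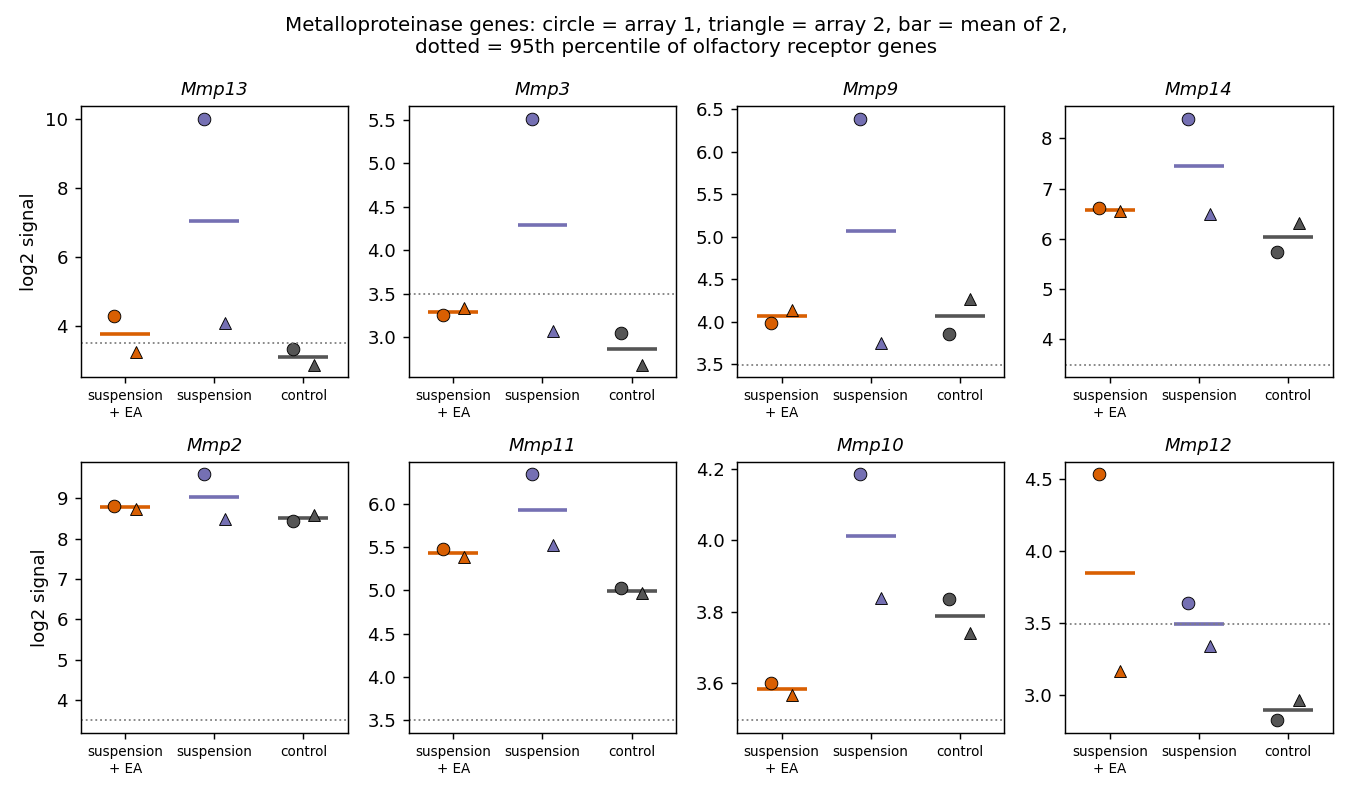
Log2 signal (y axis) of Mmp13, Mmp3, Mmp9, Mmp14, Mmp2, Mmp11, Mmp10 and Mmp12 in suspension with EA, suspension and control (x axis, left to right), with circles for array 1, triangles for array 2, bars for the mean of both and a dotted line at the background level. Suspension array 1 lies above every other array for Mmp13 (10.02), Mmp3 (5.51), Mmp9 (6.39), Mmp14 (8.39), Mmp2 (9.59) and Mmp11 (6.34), and Mmp12 is highest on EA array 1 (4.53).

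Spread of this kind was widespread among the members in the suspension group. The arrays differed by more than the 95th percentile of all genes' gaps (0.573) for 12 of 49 members (24.5%) in suspension, for 5 (10.2%) in EA, at a percentile of 0.503, and for 2 (4.08%) in control, at 0.704. In suspension 11 of the 12 were higher on array 1, namely Mmp13, Timp1, Mmp9, Mmp3, Mmp14, Mmp2, Mmp19, Adamtsl1, Mmp11, Timp2 and Mmp16, and Mmp7 was higher on array 2. Suspension array 1 was the highest of the 6 arrays for 18 members (36.7%), against 18.6% of all genes. No scan date or batch is given in the sources used here.

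Markers of other cell types also differed between the suspension arrays. The 7 fibroblast markers averaged -0.23 and -0.29 from the control mean on the EA arrays, 0.31 and -0.72 on the suspension arrays and -0.09 and 0.09 on the control arrays. These averages hid opposite directions. On both EA arrays Col1a1, Col3a1 and Dpt lay below both control arrays, Pdgfra, Dcn and Pi16 above both, and Lum between. On suspension array 2 Col1a1, Col3a1, Pi16 and Dpt lay below both control arrays, Pdgfra and Dcn above both, and Lum between. All 7 fibroblast markers were higher on suspension array 1 than on array 2. Their summed linear signals were 4289 and 4056 in EA, 4067 and 3325 in suspension and 3549 and 3944 in control. The 8 macrophage markers averaged 0.72 and 0.41 from the control mean on the EA arrays, 0.53 and -0.16 on the suspension arrays and -0.15 and 0.15 on the control arrays. All 8 were higher on suspension array 1 than on array 2, and their sums were 1099 and 738.5 in EA, 847.8 and 464.8 in suspension and 408.1 and 551.7 in control. EA array 1 had the highest macrophage sum. Linear sums are weighted to the gene of highest signal, which was Dcn among the fibroblast markers and Lyz2 among the macrophage markers. Of 7 neutrophil markers 2 were higher on suspension array 1 than on array 2, and their mean signals ran from 1.82 to 4.13. The part of fibroblasts and macrophages in the Mmp signals was not tested.

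**Figure D4:**
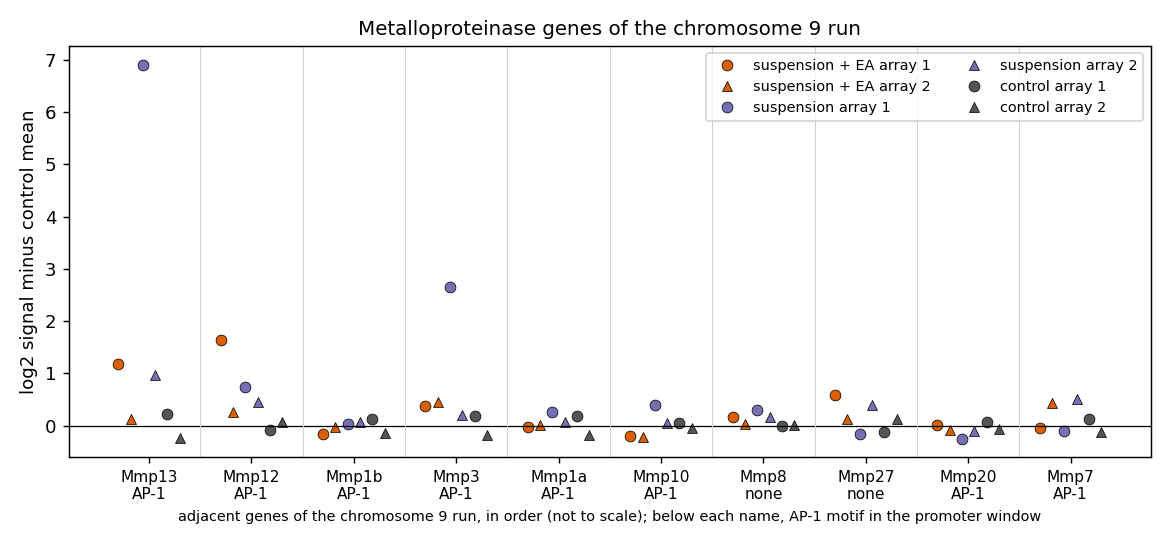
Log2 signal minus the control mean (y axis) of the 10 neighbouring Mmp genes on chromosome 9, in their order along the chromosome and not to scale (x axis), on each array of suspension with EA, suspension and control. The label AP-1 under a name marks the letters TGANTCA, which in Mmp20 were TGAATCA. Suspension array 1 stands above the other arrays at Mmp13 (6.91) and Mmp3 (2.64), while Mmp12 and Mmp1b, which lie between them, show no such peak. The mean signals of Mmp12 and Mmp1b were below background, which limits what a missing peak shows.

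The inhibitors differed among themselves in pattern. Timp3, which is bound to the matrix and blocks Adamts4, Adamts5 and the sheddase Adam17 as well as metalloproteinases, had log2 signals of 9.003 and 9.17 on the EA arrays, 8.27 and 8.21 on the suspension arrays and 8.36 and 8.52 on the control arrays. Both EA arrays were above the other 4 arrays, which ran from 8.21 to 8.52. EA minus suspension was 0.85 ± 0.13, or 1.80-fold (95% interval 0.55 to 1.14). This was the member with the lowest unadjusted p in that comparison, and it did not pass (adjusted p = 0.337). EA minus control was 0.65 ± 0.13 (adjusted p = 0.0606) and suspension minus control -0.20 ± 0.13 (0.598). The EA minus control value passed with genes at or above the median signal (0.0435), after quantile normalization again (0.03) and after cyclic loess (0.031). It did not pass without the variance trend, with a robust prior, with array weights or with each array centred on its median. Nor did it with the mean of all clusters, the replicate block or only the compared groups. The value was 0.57 without control array 1 and 0.73 without control array 2.

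Timp4, the inhibitor of striated muscle and fat, had 7.49 and 7.30 on the EA arrays, 7.38 and 7.42 on the suspension arrays and 8.10 and 8.95 on the control arrays. Both control arrays were above the other 4, and they differed from each other by more than the 95th percentile of all genes. The difference was -1.13 ± 0.24 in EA minus control (adjusted p = 0.0722) and -1.12 ± 0.24 in suspension minus control (0.0763). EA minus suspension was 0.00 ± 0.24, with an interval from -0.55 to 0.54. Without control array 1 the first 2 were -1.55 (adjusted p = 0.00796) and -1.55 (0.00713), and without control array 2 they were -0.71 (0.0629) and -0.70 (0.0651). Adipocyte markers, 5 genes, also differed between the control arrays, with summed linear signals of 895.6 and 808.8 in EA, 802.6 and 770.5 in suspension and 768.1 and 1761 in control. Fabp4, the one of highest signal, weighed most in these sums. The part of adipocytes in the Timp4 signal was not tested.

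Timp1, the inducible inhibitor that binds the precursor of Mmp9, had 5.23 and 4.28 on the EA arrays, 6.98 and 4.04 on the suspension arrays and 5.75 and 6.62 on the control arrays. Suspension array 1 was the highest of all and array 2 the lowest, a gap of 2.94 that ranked 3 among all genes. Suspension minus control was -0.67 ± 0.77 (adjusted p = 0.799), or -2.14 without suspension array 1 and 0.80 without array 2. EA minus control was -1.43 ± 0.77 (adjusted p = 0.517), with both EA arrays below both control arrays, and -0.95 without EA array 2. For EA minus suspension it was -0.76 ± 0.77, or 0.71 without suspension array 1. Timp2, which both inhibits Mmp2 and helps Mmp14 to activate it, had 8.51 and 8.58 on the EA arrays, 8.69 and 8.03 on the suspension arrays and 8.40 and 8.34 on the control arrays. The EA arrays lay within the range of the suspension arrays, and suspension minus control was -0.01 ± 0.20 (adjusted p = 0.993), or -0.34 without suspension array 1 and 0.32 without array 2.

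With protein-coding genes of the annotation ordered by start position, a synapsin gene came just before Timp1 (Syn1), Timp3 (Syn3) and Timp4 (Syn2). Only start positions were compared, so the order does not tell a gene beside a synapsin gene from one inside it. The synapsin genes had low signals on every array (3.45 to 3.89 for Syn1, 3.61 to 4.23 for Syn3 and 4.12 to 4.55 for Syn2).

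**Figure D5:**
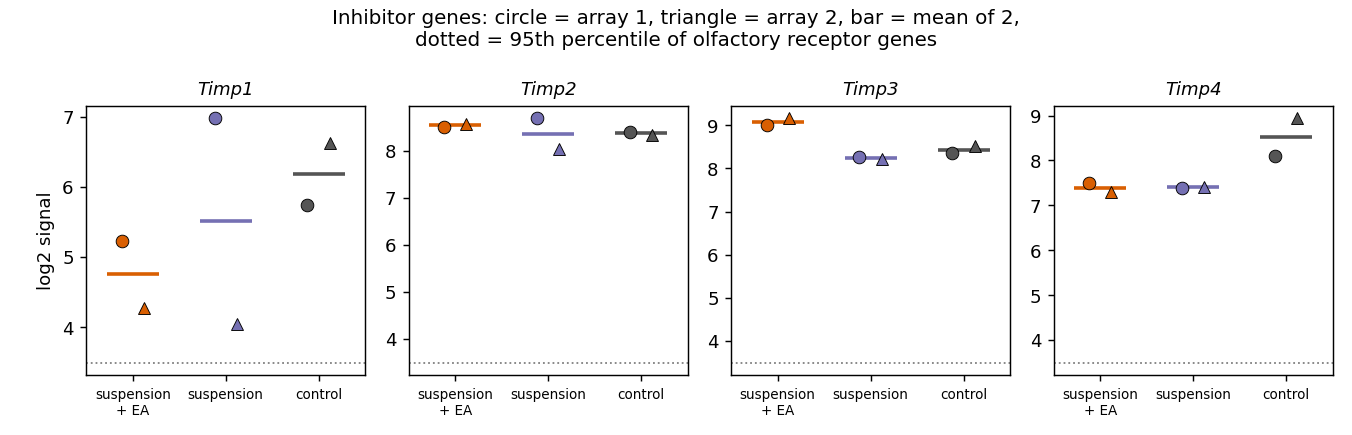
Log2 signal (y axis) of the inhibitors Timp1 to Timp4 in suspension with EA, suspension and control (x axis, left to right), with circles for array 1, triangles for array 2, bars for the mean of both and a dotted line at the background level. Timp3 is highest on both EA arrays (9.003 and 9.17), Timp4 on both control arrays (8.10 and 8.95), and Timp1 spans 4.04 to 6.98 within suspension.

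None of the remaining members passed the test. Over these 27 members (Adamts20 included), 17 of them above background, differences ran from -0.35 (Mmp19, an enzyme of basement membranes) to 0.28 (Mmp25, the leukocyte membrane-type enzyme) in suspension minus control, with a lowest unadjusted p of 0.119. In EA minus suspension they ran from -0.24 (Adamts14, a procollagen N-proteinase) to 0.35 (Mmp19), with a lowest unadjusted p of 0.22. In EA minus control they ran from -0.40 (Mmp17) to 0.36 (Mmp27), and the lowest p was that of Adamts20. Mmp17, a membrane-type enzyme anchored by a lipid, had 3.89 and 3.72 on the EA arrays, 4.11 and 3.97 on the suspension arrays and 4.40 and 4.01 on the control arrays, and EA minus control was -0.40 ± 0.18 (adjusted p = 0.413), or -0.21 without control array 1. The procollagen N-proteinase Adamts14, the cartilage oligomeric matrix protein-cutting Adamts7 and Adamts12, and the fibrillin-linked Adamts6 and Adamts10 were among those that did not pass in any comparison. Adamts13, which cuts von Willebrand factor and is made mainly in liver, was at background.

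Around the members, 54 genes of activation, inhibition, substrates and related proteases were listed, of which 50 were measured. Limma called 0 of the 50 in either direction in all 3 comparisons, where 9 (18.0%) had an unadjusted p under 0.05 in suspension minus control, 3 (6.00%) in EA minus suspension and 12 (24.0%) in EA minus control, against the 12.7%, 3.07% and 12.8% of all genes given above. Their median differences were -0.05 in suspension minus control, -0.02 in EA minus suspension and -0.04 in EA minus control. Among the substrates the type I collagen chain Col1a1 differed by -1.84 in EA minus control (adjusted p = 0.116) and -1.62 in suspension minus control (0.157), and Col1a2 by -1.23 (0.231) and -1.20 (0.234). Without suspension array 1 the suspension minus control values were -2.52 for Col1a1 and -1.96 for Col1a2, and without array 2 they were -0.73 and -0.45. The matrix protein Thbs1, which binds proteases and latent TGF-beta, differed by 0.74 in EA minus suspension (adjusted p = 1.00) and -0.91 ± 0.20 in suspension minus control (0.0864), and the EA minus suspension value was 0.47 without suspension array 2. Ctsl, a lysosomal cysteine protease that rises in wasting muscle, differed by 0.70 in EA minus control (adjusted p = 0.139) and 0.74 in suspension minus control (0.115), and the EA minus control value was 0.46 without control array 1. The sheddase Adam17, a target of Timp3, differed by -0.50 in EA minus control (0.181) and -0.54 in suspension minus control (0.147). The Adamts-like inhibitor gene Papln differed by -0.55 in suspension minus control (0.158).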

How the data were processed

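Total RNA of mouse soleus was measured on 6 arrays in 3 groups of 2. The deposited values are log2 signals per transcript cluster, computed by RMA in Affymetrix Expression Console per the submitters' processing notes, with no version; the genome build is not given in the sources used here. Of 35556 clusters, 21789 had 1 gene symbol, and the cluster with the highest mean was kept for each of 19938 genes. The members and lists were chosen with earlier results of these data known.

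A linear model of the 3 groups over all 6 arrays was fitted to all genes with limma 3.58.1 in R 4.3.3, with a variance trend. Residual degrees of freedom were 3, with 5.88 from the prior. Benjamini and Hochberg's adjustment ran over all genes, with a threshold of 0.05, and standard errors had a median of 0.173. The scripts were tested on simulated data. Array values are given for members past the threshold, the 6 of lowest p in each comparison, a fixed set of enzymes and inhibitors, the 10 of highest signal and up to 3 with the widest gap between arrays of each group. Mmp17, Adamts20 and the clusters of Adamts3 and Adamts9 were added after values were seen. Other genes were taken from a fixed list by lowest p.

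Replicate numbers did not pair the arrays: deviations of same-numbered arrays correlated at -0.16 between suspension and control, 0.02 between EA and control and -0.02 between EA and suspension. Other settings tried were the variance prior, array weights, a signal filter, other scalings, the mean of all clusters, a replicate block, the compared groups alone and each array left out.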

Additional observations from a re-analysis of the deposited data

How the results depend on the processing

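The counts of members called (2 in suspension minus control, 0 in EA minus suspension, 2 in EA minus control) and of genes called (209, 0 and 206) depended on the fit. For suspension minus control 1 member passed without the variance trend or with only the compared groups fitted and 4 with cyclic loess (Adamts1, Adamts3, Adamts8, Timp4), and for EA minus control 1, 1 and 4, and 5 after quantile normalization again. Genes called were 80 and 101 without the trend, 68 and 129 with only the compared groups, 130 in suspension minus control with array weights and 312 in EA minus control after quantile normalization again. In EA minus suspension they were 1 with a robust prior, 4 with array weights and 3 with the 2 groups alone. The replicate block left 2, 0 and 2 members called and 102, 0 and 127 genes. The members' median in suspension minus control was -0.0794 for genes at or above the median signal. With each array left out in turn, members called ranged from 0 to 5, 0 to 1 and 0 to 3 (suspension minus control, EA minus suspension, EA minus control), genes called from 16 to 301, 0 to 3 and 2 to 299, and the median from -0.0503 to 0.0515, -0.12 to -0.0028 and -0.0475 to 0.0675. The 5 members called without suspension array 2 were Mmp3, Mmp9, Mmp11, Mmp13 and Mmp14, and 0 passed without suspension array 1 (suspension minus control) or without either EA array (EA minus control). Left-out arrays turned signs of differences that had not passed: in suspension minus control the ranges were -0.031 to 1.08 for Mmp2, -0.31 to 2.33 for Mmp9, -2.14 to 0.80 for Timp1 and -0.34 to 0.32 for Timp2. In EA minus suspension they were -0.26 to 0.20 for Adamts1, -1.81 to 0.0915 for Mmp14, -2.22 to 0.22 for Mmp3, -2.33 to 0.31 for Mmp9, -2.22 to 0.71 for Timp1, -0.15 to 0.52 for Timp2 and -0.10 to 0.092 for Timp4. Timp4 in EA minus suspension was also 0.0126 after quantile normalization again and 0.0169 after cyclic loess. Fits with an array left out, or with 2 groups, have fewer residual degrees of freedom; the cause of the other changes was not tested. Signals near background, as for Mmp3, Mmp10 and Mmp12, limit what a difference shows.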

Other observations

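Several genes around the members had differences in EA minus suspension that did not pass (adjusted p = 1.00 each). The substrates Vcan, the versican gene cut by Adamts1 and its relatives, and Thbs2, a matrix thrombospondin, differed by 0.69 and 0.51, and Dcn, the collagen-binding proteoglycan decorin, by 0.28. Pcolce2, an enhancer of procollagen C-proteinase, differed by 0.39, and Ctss, the cathepsin of macrophages, by 0.58. Without suspension array 2 these were 0.10 for Vcan, 0.19 for Thbs2, 0.24 for Pcolce2 and 0.30 for Ctss, and Ctss was 0.0311 without EA array 1. In EA minus control Dcn differed by 0.45 (adjusted p = 0.198) and Plaur, the receptor of the urokinase plasminogen activator, by 0.56 (0.256), or 0.36 without control array 2.

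Among members that were described by range, Mmp19 had log2 signals of 4.25 and 3.74 on the EA arrays, 4.17 and 3.11 on the suspension arrays and 3.99 and 3.99 on the control arrays. Mmp16, a membrane-type enzyme at the background level, had 3.02 and 3.83 on the EA arrays, 3.84 and 3.22 on the suspension arrays and 3.36 and 3.33 on the control arrays. Adamtsl1 had 4.80 and 4.52 on the EA arrays, 5.26 and 4.36 on the suspension arrays and 4.71 and 4.69 on the control arrays. Mmp19, Mmp16 and Adamtsl1 had suspension arrays farther apart than their control arrays. They were picked for that spread.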
